A study of Mus musculus with 34 samples.

Results

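The genes described here are the classical axon guidance ligands and receptors: 68 protein-coding genes whose names mark them as semaphorins, plexins, ephrins, EPH receptors, SLITs, ROBOs, netrins or members of the UNC5 family. They were taken by gene symbol from 3 count tables of mouse small cell lung cancer (SCLC), and all 68 were present in each table, among 28432, 30351 and 29745 genes. There were 35 ligand genes (20 semaphorins of classes 3 to 7, 3 SLITs, 4 netrins, 5 A-type and 3 B-type ephrins) and 33 receptor genes (9 plexins, 4 ROBOs, 6 UNC5 genes, 9 EPHA and 5 EPHB receptors). The symbol rule also caught Unc50, which encodes a Golgi protein and not a netrin receptor, and Unc5cl, an UNC5C-like gene; both were counted with the UNC5 family.

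Axon guidance cues are secreted or membrane-bound proteins that attract or repel growing axons. Class 3 semaphorins signal through plexins with neuropilin co-receptors, SLITs through ROBO receptors, netrins through DCC and UNC5 receptors, and ephrins through EPH receptor tyrosine kinases by cell contact. The same proteins act outside the nervous system in cell migration, adhesion and blood vessel growth. SCLC is a neuroendocrine lung cancer whose cells express many neuronal genes.

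Bomedemstat (BOM), a drug that inhibits the histone demethylase LSD1, was given to mouse SCLC cells and tumors. The first experiment exposed cultures of RP-116, RP-48 and, as a further SCLC line, G8545 to BOM or DMSO for 96 h, with a single library for each combination (n = 3 with BOM and n = 3 with DMSO). The second used cultures of RP-48OVA-LLO190 that received BOM (n = 2), BOM with interferon gamma (IFNg) over the last 48 h (n = 2), DMSO with the same IFNg exposure (n = 3) or DMSO alone (n = 3) for 10 d. The third used RP-48OVA-LLO190 tumors grown in the flank of mice with an intact immune system and sampled after 16 d of BOM (n = 4), BOM with anti-PD1 antibody (n = 4), anti-PD1 alone (n = 5) or Vehicle (n = 5). All 10 d and tumor groups therefore carry the single line RP-48OVA-LLO190, and the strain and age of the mice are not given in the sources used here. The labels do not say whether replicates came from separate cultures, so p-values measure the spread between these libraries, which may be technical.

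Libraries held 8712025 to 9968681 counts at 96 h, 5896627 to 9044398 counts at 10 d and 5638353 to 82205546 counts in the tumors, the highest in Vehicle tumor 1. Per the labels, polyA RNA was sequenced at 96 h and in the tumors and total RNA at 10 d, and the transcript Gm26917 took 8.36 to 9.85% of counts in the BOM cultures, against 11.9 to 15.8% in the DMSO cultures. All 9 neuroendocrine SCLC markers were detected in every library, with a summed level of 2387 to 3997 CPM. Every level is in CPM, the counts of a gene scaled to a common library total with the trimmed mean of M-values (TMM), and a gene was called at a Benjamini-Hochberg adjusted p under 0.05 in the quasi-likelihood F-test of edgeR over all genes tested. The library kit does not mark the strand, and 30 of the 68 genes overlap a gene on the opposite strand, so counts of Sema3a, Sema3d, Sema3e, Sema4c, Sema5a, Sema6d, Slit2, Slit3, Ntn1, Ntn4, Efna4, Robo1, Robo2, Unc5a, Unc5c, Plxna1, Plxna4, Plxnb1, Epha5, Epha6, Epha7 and Ephb4 among the genes below are less certain; Efnb2, Epha8, Sema3c, Slit1 and Efna1 have no such overlap. The filter on low counts left 59 of the 68 genes at 96 h, 62 at 10 d and 60 in the tumors.

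The ligands and receptors spanned a wide range of levels, and most families had 1 or a few abundant members. Levels of different genes were compared as mean CPM per kilobase of exon. The plexin Plxnb2, a receptor for class 4 semaphorins, was the highest of the 68 genes in every table, at 48.8 CPM per kilobase at 96 h, 48.8 at 10 d and 63.8 in the tumors. Among secreted ligands Slit1 averaged 22.0, 19.2 and 20.6 CPM per kilobase in the same order of tables, Sema3e 16.4, 20.4 and 14.5, and Ntn4 22.1, 7.41 and 17.3. The highest ephrins were Efna5 at 96 h and 10 d (23.6 and 20.6 CPM per kilobase) and Efnb2 in the tumors (24.1). The highest EPH receptors were Ephb2 at 96 h (20.9), Ephb6 at 10 d (22.7) and Ephb3 in the tumors (12.5). Robo1 led the ROBO receptors in all 3 tables, at 10.5, 7.79 and 2.55 CPM per kilobase. The 3 tables were normalised separately, so these levels stand side by side and were not tested against each other.

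A few genes were at or near 0 in the cultures and were counted in every tumor. Robo4, an endothelial ROBO receptor, had 0 counts in the 6 libraries at 96 h and 1 count in the 10 libraries at 10 d, and its tumor levels were 3.16 to 8.08 CPM with BOM, 3.53 to 10.2 CPM with BOM and anti-PD1, 3.66 to 13.9 CPM with anti-PD1, and 5.17 to 8.43 CPM with Vehicle. Ephb4, an EPH receptor of veins, averaged 3.61 CPM in BOM tumors and 3.46 CPM in Vehicle tumors, and Slit3 averaged 8.95 CPM in BOM tumors and 6.90 CPM in Vehicle tumors; neither passed the filter in either culture table. The tumors also held stromal RNA: the summed endothelial markers lay between 62.8 and 162 CPM in the tumors, and the summed fibroblast and pericyte markers between 309 and 2157 CPM. In bulk samples fewer cells of a type and less RNA per cell cannot be told apart.

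**Figure D1:**
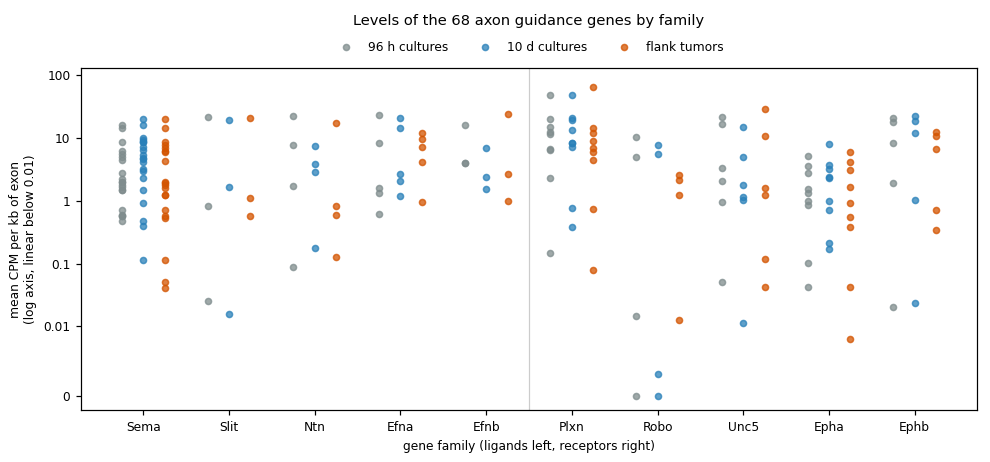
Mean CPM per kilobase of exon (y axis, logarithmic above 0.01 and linear below) of each of the 68 genes, by family on the x axis, with 1 point per gene and table and 1 color per table; ligand families stand left of the gray line and receptor families right of it. The highest points are those of the plexin Plxnb2 at 48.8, 48.8 and 63.8 CPM per kilobase, and the points at 0 are ROBO genes in the culture tables.

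The results turn on a small set of genes, and the proximal promoters of 4 of them are shown because these genes moved with BOM in culture and in tumors. Efnb2 (ENSMUSG00000001300.16) encodes ephrin-B2 and lies on chromosome 8, positions 8617434 to 8661242 of mm10, minus strand. Epha8 (ENSMUSG00000028661.8) encodes an ephrin-A receptor and lies on chromosome 4, positions 136929419 to 136956816, minus strand. Sema3c (ENSMUSG00000028780.13) encodes a secreted class 3 semaphorin and lies on chromosome 5, positions 17574281 to 17730268, plus strand. Sema5a (ENSMUSG00000022231.10) encodes a transmembrane semaphorin and lies on chromosome 15, positions 32244810 to 32696341, plus strand, where the long non-coding gene 4930465K09Rik overlaps it on the other strand. The sequences are from RefSeq (GRCm38.p6), run 5′ to 3′ on the gene's strand from 250 bases before to 50 bases after the annotated start, and cover chr8:8661193-8661492 (minus strand), chr4:136956767-136957066 (minus strand), chr5:17574566-17574865 (plus strand) and chr15:32244563-32244862 (plus strand). Capitals mark GGGCGG, the core of the SP1 GC box, and CCAAT, the CCAAT box, on either strand; overlapping matches run together.
Efnb2: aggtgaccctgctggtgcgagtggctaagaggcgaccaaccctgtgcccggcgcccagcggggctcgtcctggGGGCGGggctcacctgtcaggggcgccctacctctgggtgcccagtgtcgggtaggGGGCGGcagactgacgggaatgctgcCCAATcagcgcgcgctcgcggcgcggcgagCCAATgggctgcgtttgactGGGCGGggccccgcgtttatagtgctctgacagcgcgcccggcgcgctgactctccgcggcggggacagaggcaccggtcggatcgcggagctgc
Epha8: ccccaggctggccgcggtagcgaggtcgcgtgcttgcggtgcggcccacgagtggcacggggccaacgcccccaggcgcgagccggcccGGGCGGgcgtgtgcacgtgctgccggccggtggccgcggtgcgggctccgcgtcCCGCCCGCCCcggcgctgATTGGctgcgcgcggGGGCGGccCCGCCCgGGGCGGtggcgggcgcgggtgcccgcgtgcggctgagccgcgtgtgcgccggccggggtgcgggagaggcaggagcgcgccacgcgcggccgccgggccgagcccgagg
Sema3c: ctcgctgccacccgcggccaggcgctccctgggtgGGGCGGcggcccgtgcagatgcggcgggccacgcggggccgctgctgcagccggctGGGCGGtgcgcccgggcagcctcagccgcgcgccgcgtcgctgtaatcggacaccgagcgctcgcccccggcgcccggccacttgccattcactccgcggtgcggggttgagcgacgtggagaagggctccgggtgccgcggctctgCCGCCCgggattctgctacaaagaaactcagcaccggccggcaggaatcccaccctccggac
Sema5a: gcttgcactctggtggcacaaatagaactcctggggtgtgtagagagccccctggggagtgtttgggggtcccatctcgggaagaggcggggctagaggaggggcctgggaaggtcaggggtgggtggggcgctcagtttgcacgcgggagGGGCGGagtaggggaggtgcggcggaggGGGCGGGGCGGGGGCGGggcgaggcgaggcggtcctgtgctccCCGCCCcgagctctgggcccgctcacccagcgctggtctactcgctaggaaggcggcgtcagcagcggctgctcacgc

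All 4 windows are rich in G and C, from 71.3% in Sema5a and 72.3% in Efnb2 to 75.7% in Sema3c and 84.3% in Epha8. GGGCGG occurs 3 times in the window of Efnb2, 6 times in Epha8, 3 times in Sema3c and 5 times in Sema5a; CCAAT occurs 2 times in Efnb2 and once in Epha8. RefSeq promoters were matched by symbol for 59 of the 68 genes, with 75 windows in all, and their median GC content was 64.3%, against 52.7% over 32851 windows of all genes. GGGCGG was present in 70.7% of the windows of the guidance genes, against 35.7% of all windows. Of the other letters searched on both strands, TGGGAA (RBPJ) was in 22.7% of guidance windows and 25.6% of all windows, CCAAT in 29.3% and 37.4%, TTCNNNGAA (STAT) in 4.0% and 8.30%, and AAATCA (GFI1) in 9.33% and 14.0%. These are matches of letters in a window, not measured sites.

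At 96 h none of the 59 genes tested was called between BOM and DMSO in the 3 lines, and neither was any of the 13333 genes tested (0%). An unadjusted p under 0.05 was reached by 6 of the 59 genes and by 6.09% of all genes, and DESeq2 and limma voom called 0 of the 59 genes as well. The lines differed widely in their levels. Sema3a, a secreted semaphorin, had 0.117, 39.0 and 45.1 CPM with BOM in RP-116, RP-48 and G8545, against 0.122, 49.8 and 30.9 CPM with DMSO in the same lines. Ntn1, which encodes netrin-1, had 5.28, 5.55 and 98.7 CPM with BOM, against 5.97, 4.48 and 172 CPM with DMSO. Sema3a was near 0 in RP-116 and Ntn1 was highest in G8545, with either treatment.

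The genes with the lowest p at 96 h were the SLIT receptor gene Robo2, Efnb2 and Epha5, an ephrin-A receptor gene. Robo2 had 13.6, 74.1 and 199 CPM with BOM in RP-116, RP-48 and G8545, against 7.80, 58.6 and 150 CPM with DMSO, and was higher with BOM in all 3 lines (log2 fold change 0.48, SE 0.14, adjusted p = 0.544). Efnb2 had 23.7, 221 and 171 CPM with BOM, against 23.9, 135 and 85.2 CPM with DMSO. Its BOM value was higher in RP-48 and G8545 and level in RP-116 (log2 fold change 0.60, SE 0.19, adjusted p = 0.589). Epha5 had 17.0, 78.7 and 131 CPM with BOM, against 7.68, 80.3 and 48.5 CPM with DMSO, so that RP-48 did not follow the other lines (log2 fold change 0.82, adjusted p = 0.642). In the edgeR test without any filter on low counts Efnb2 and Epha5 passed the threshold, at adjusted p = 0.0445 and 0.0154. Each gene was called in only this 1 of 10 alternative settings. The share of all genes called in that setting is not given here. Unc5c, a netrin receptor gene, had 5.87, 22.7 and 41.1 CPM with BOM, against 3.41, 23.9 and 14.3 CPM with DMSO.

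**Figure D2:**
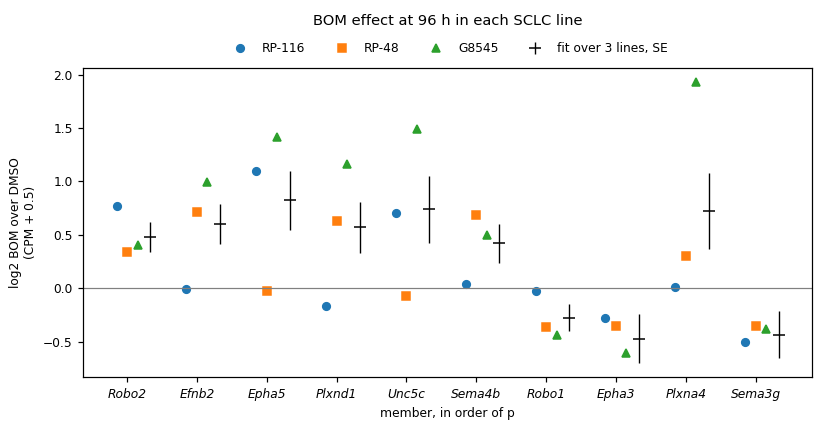
Log2 ratio of BOM over DMSO at 96 h (CPM plus 0.5) in each line for the 10 genes with the lowest p, with 1 symbol per line and the fitted log2 fold change with its SE as a black bar. None was called; Robo2 was above 0 in all 3 lines and Sema3g below 0 in all 3, and the ratio of Epha5 was 1.10 in RP-116, -0.03 in RP-48 and 1.42 in G8545.

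At 10 d in RP-48OVA-LLO190 the guidance genes split in both directions with BOM. Of 62 genes tested 12 rose and 19 fell, 50% of the family set, where 20.3% of all 15230 genes tested were called (12.1% higher and 8.25% lower). Both roles held rises and falls: 6 rose and 9 fell of 33 ligand genes, and 6 rose and 10 fell of 29 receptor genes. The median log2 fold change was -0.17 over the 62 genes and -0.01 over all genes. A change of 2-fold or more was seen in 14 of the 31 called genes, 7 in each direction. Over all genes, 3094 were called, of which 863 rose and 313 fell by 2-fold or more. Markers of fibroblasts and pericytes were higher in the same BOM cultures (summed level 56.8 to 66.1 CPM with BOM, against 17.7 to 22.2 CPM with DMSO, with 5 of 6 tested markers called higher and 1 or 2 of the 9 list genes at 0 in each library). The summed endothelial markers were 39.9 to 54.8 CPM with BOM, against 16.7 to 18.9 CPM with DMSO, with 1 of 3 tested markers called higher and up to 2 of 8 at 0. The summed Schwann cell markers were 80.2 to 92.3 CPM with BOM, against 117 to 123 CPM with DMSO, with 1 of 3 tested markers called lower and up to 1 of 5 at 0. The part of these lists in the result was not tested.

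Among the ligands that fell, Slit1 and Sema5a lost most. Slit1, a secreted repellent read by ROBO receptors, had 47.3 and 44.5 CPM in BOM cultures, against 183, 178 and 189 CPM in DMSO cultures. The values of each group lay close together and far from the other group (log2 fold change -2.0, SE 0.14, adjusted p = 1.41e-08). Sema5a had 19.8 and 22.3 CPM in BOM cultures, against 73.9, 89.2 and 90.0 CPM in DMSO cultures, a fall of the same size (log2 fold change -2.0, SE 0.13, adjusted p = 1.01e-08). Ntn1 had 6.23 and 11.7 CPM in BOM cultures, against 30.5, 29.7 and 40.1 CPM in DMSO cultures, again without overlap (log2 fold change -1.89, SE 0.24, adjusted p = 1.53e-05). Sema3c fell less, to 39.1 and 44.7 CPM in BOM cultures, against 67.8, 68.7 and 66.2 CPM in DMSO cultures (log2 fold change -0.69, adjusted p = 1.6e-04). The transmembrane semaphorins Sema6a, Sema4c and Sema6c fell by 0.87, 0.79 and 0.83 on the log2 scale, and the other called falls among ligands were Slit2 (-0.60) and Efna4 (-1.34). The call of Slit2 was lost without BOM library 1, at adjusted p = 0.118.

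The ligands that rose were led by Sema3a, Efnb2 and Efna1. Sema3a had 116 CPM in both BOM cultures, against 45.6, 45.2 and 39.4 CPM in DMSO cultures (log2 fold change 1.42, SE 0.13, adjusted p = 3.51e-07). Efnb2 had 96.7 and 98.6 CPM in BOM cultures, against 19.1, 28.4 and 28.9 CPM in DMSO cultures (log2 fold change 1.95, SE 0.18, adjusted p = 3.95e-07). In both genes every BOM library stood at more than double the highest DMSO library. Efna1, which encodes ephrin-A1, had 9.5 and 7.83 CPM in BOM cultures, against 2.37, 0.672 and 0.528 CPM in DMSO cultures, a large ratio at a low level (log2 fold change 2.77, SE 0.47, adjusted p = 3.42e-04). The smaller rises were Sema4b (0.56), Sema3d (0.84) and Efna5 (0.31). Within the class 3 semaphorins Sema3a and Sema3d rose and Sema3c fell, while the abundant Sema3e averaged 192 CPM in BOM cultures and 198 CPM in DMSO cultures (log2 fold change -0.04, SE 0.09, adjusted p = 0.805).

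Among the receptors 2 of the netrin receptor genes rose and the SLIT receptor genes fell. Unc5c, which encodes a repulsive netrin receptor, had 60.3 and 44.2 CPM in BOM cultures, against 2.92, 8.90 and 10.2 CPM in DMSO cultures (log2 fold change 2.87, SE 0.32, adjusted p = 3.3e-06). Unc5d, of the same family, had 24.1 and 16.1 CPM in BOM cultures, against 4.87, 4.03 and 5.46 CPM in DMSO cultures (log2 fold change 2.07, adjusted p = 1.57e-04). Their relatives Unc5a and Unc5b were not called, at log2 fold changes of 0.23 and 0.55. Robo1 had 69.9 and 132 CPM in BOM cultures, against 142, 171 and 167 CPM in DMSO cultures, and the BOM libraries stood far apart from each other (log2 fold change -0.66, SE 0.18, adjusted p = 0.015). Robo2 averaged 79.1 ± 7.2 CPM in BOM cultures and 117.0 ± 3.5 CPM in DMSO cultures (SD, n = 2 and n = 3; log2 fold change -0.56, adjusted p = 0.00561).

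Plexin genes moved in both directions. Plxna4, a partner of neuropilin in class 3 semaphorin signalling, had 9.03 and 13.1 CPM in BOM cultures, against 2.23, 2.52 and 2.11 CPM in DMSO cultures (log2 fold change 2.27, SE 0.36, adjusted p = 1.84e-04). Antisense transcripts of its own locus overlap Plxna4. Plxna1, another A-type plexin gene, had 63.7 and 66.4 CPM in BOM cultures, against 103, 91.2 and 90.8 CPM in DMSO cultures (log2 fold change -0.55, SE 0.10, adjusted p = 4.34e-04). Plxna3 fell by 0.66 and Plxnb1 by 0.42 on the log2 scale, and Plxnd1, the receptor of SEMA3E, rose by 0.37. Plxnb2, the most abundant plexin gene, averaged 353 CPM in BOM cultures and 401 CPM in DMSO cultures and was not called (log2 fold change -0.18, adjusted p = 0.112).

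Of 9 EPHA genes tested 3 fell and 2 rose, and of 4 EPHB genes 2 fell and none rose. Epha8 had 8.56 and 15.4 CPM in BOM cultures, against 64.8, 52.6 and 56.0 CPM in DMSO cultures (log2 fold change -2.27, SE 0.24, adjusted p = 2.56e-06). Ephb2, a receptor of ephrin-B ligands, had 104 and 111 CPM in BOM cultures, against 162, 185 and 195 CPM in DMSO cultures (log2 fold change -0.75, adjusted p = 6.07e-05). Epha3 averaged 5.97 CPM in BOM cultures and 15.6 CPM in DMSO cultures, and Epha2 averaged 7.90 CPM in BOM cultures and 18.7 CPM in DMSO cultures, falls of 1.38 and 1.24 on the log2 scale. Ephb6, which encodes a receptor without kinase activity, fell by 0.65. The rises were Epha5, with 81.1 and 71.2 CPM in BOM cultures against 47.5, 41.3 and 42.8 CPM in DMSO cultures (log2 fold change 0.79, adjusted p = 6.47e-05), and Epha6, which averaged 2.82 CPM in BOM cultures and 0.322 CPM in DMSO cultures (log2 fold change 3.07, SE 0.62).

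**Figure D3:**
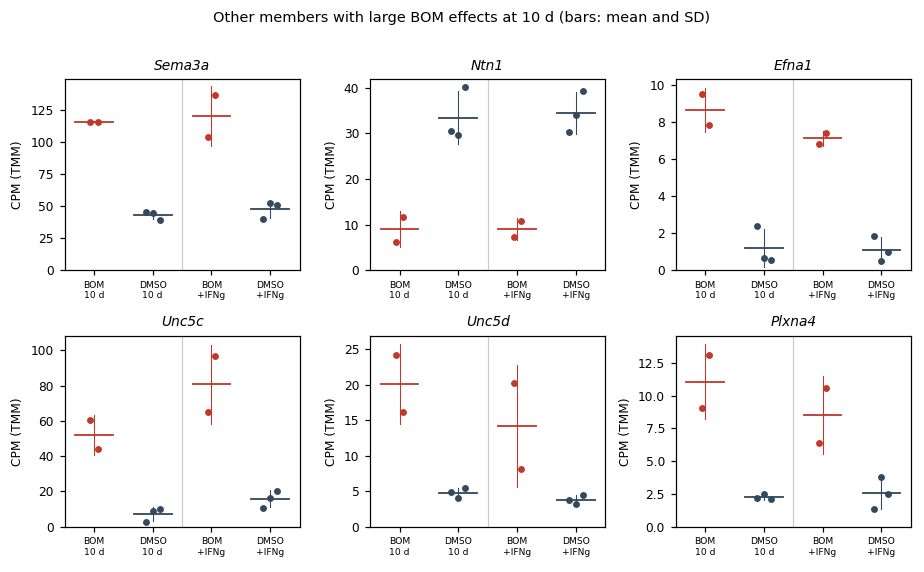
CPM at 10 d of 3 ligand genes (top row) and 3 receptor genes (bottom row) with 1 point per library, a horizontal bar at the group mean and a vertical bar of 1 SD; BOM groups are red and DMSO groups dark. In every panel the BOM libraries lie apart from the DMSO libraries of the same IFNg exposure; Ntn1 is lower with BOM (6.23 and 11.7 CPM against 29.7 to 40.1 CPM with DMSO) and the other 5 genes are higher.

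With IFNg in the last 48 h the BOM comparison gave a similar list. Of 62 genes 10 rose and 17 fell in BOM with IFNg against DMSO with IFNg, or 43.5%, where 23.1% of all genes were called (13% higher and 10.1% lower). The comparisons with and without IFNg share no library, and 24 genes were called in both, all in the same direction. This is 77.4% of the 31 called without IFNg and 88.9% of the 27 called with it. The same overlap over all genes was not counted, so it is not known to be particular to the guidance genes. Slit1 had 51.8 and 33.3 CPM with BOM and IFNg, against 132, 147 and 129 CPM with DMSO and IFNg. Unc5c had 64.7 and 96.6 CPM with BOM and IFNg, against 10.9, 16.5 and 20.5 CPM with DMSO and IFNg. Efnb2 had 57.1 and 73.6 CPM with BOM and IFNg, against 16.9, 23.8 and 28 CPM with DMSO and IFNg. The BOM effect itself was not called as different with IFNg for any of the 62 genes (edgeR interaction term, 0% of all genes called; 5 genes at an unadjusted p under 0.05, as were 4.76% of all genes; 0 called by DESeq2 or limma voom). For Efnb2 the difference between the BOM effects was -0.43 on the log2 scale (SE 0.26), and for Unc5c it was -0.52 (SE 0.43).

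IFNg alone lowered 5 guidance genes and raised none. In DMSO with IFNg against DMSO 8.06% of the 62 genes were called, where 2.27% of all genes were called and most of these rose (1.95% higher, 0.315% lower). Epha3 had 5.68, 8.08 and 7.78 CPM with DMSO and IFNg, against 13.5, 15.6 and 17.8 CPM with DMSO alone (log2 fold change -1.12, SE 0.21, adjusted p = 0.00372). Sema6a, Sema6d, Sema3c and Slit1 fell by 0.34, 0.48, 0.38 and 0.43 on the log2 scale, with adjusted p from 0.0362 to 0.0498. A further fit took the replicate number as a block over all 4 groups, which also pairs the DMSO libraries without and with IFNg. In it 7 genes fell and 2 rose, where 478 of 15230 genes tested were called. The count was 3 or fewer without any single library of DMSO, DMSO with IFNg or BOM, and 6 without either library of BOM with IFNg. The Epha3 call held in every setting, and the other 4 calls were lost in some. These comparisons share the DMSO libraries with the BOM comparison above. In BOM with IFNg against BOM none of the 62 genes was called by edgeR or DESeq2 and 1 was called by limma voom, where edgeR called 2.06% of all genes (1.73% higher and 0.328% lower). An unadjusted p under 0.05 was reached by 13 of the 62 genes and by 10.2% of all genes. With the replicate number as a block 4 genes fell, where 458 of 15230 genes tested were called, and without any filter on low counts 6 of 67 were called, where 506 of 24913 were called. The gene nearest the threshold was Epha3, with 2.65 and 2.62 CPM in BOM with IFNg, against 5.92 and 6.02 CPM in BOM alone (adjusted p = 0.0598).

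Other genes of the pathway moved in the same 10 d cultures. Of 17 tested co-receptor and further receptor genes 6 rose and 3 fell with BOM, where 20.3% of all genes were called. Nrp1, which encodes neuropilin-1, the SEMA3A co-receptor, had 95.9 and 80.2 CPM in BOM cultures, against 7.24, 7.73 and 9.33 CPM in DMSO cultures (log2 fold change 3.45, SE 0.17). Nrp2 rose by 1.91 and Neo1, which encodes the netrin and RGM receptor neogenin, rose by 0.91. Dcc, the attractive netrin receptor, had 11.5 and 13.7 CPM in BOM cultures, against 17.8, 18.1 and 25.0 CPM in DMSO cultures (log2 fold change -0.68, adjusted p = 0.0208), and Ptprf, a receptor phosphatase gene, fell by 1.36. Of 6 tested other cues 5 rose and none fell, led by Cxcl12, with 34.4 and 31.2 CPM in BOM cultures against 0.974, 2.69 and 2.64 CPM in DMSO cultures, and Rgma (log2 fold change 2.29). Of 34 intracellular signalling genes 8 rose and 3 fell; Srgap1, a GTPase-activating protein gene that acts below ROBO, rose by 1.95 and Dpysl3, a collapsin response mediator gene, by 1.07. At 96 h none of the tested genes of these 3 lists was called by edgeR, with 5 of 16, 3 of 5 and 1 of 34 at an unadjusted p under 0.05.

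In the tumors the Vehicle libraries were not uniform for these genes. Of the 28 guidance genes called between BOM with anti-PD1 and anti-PD1 tumors, a comparison that uses no Vehicle library, Vehicle tumors 1 and 2 both lay on the BOM side of Vehicle tumors 3, 4 and 5 for 21 genes and on the other side for 0. Over all 4637 genes called in that comparison they lay on the BOM side for 60.9% and on the other side for 0.151%. Vehicle tumors 1 and 2 also had the most counts of the tumor libraries, 82205546 and 13150056, against 5638353 to 8359111 in the others. Why these 2 tumors lay on the BOM side was not tested. The counts of guidance genes called against Vehicle are given with and without these 2 tumors, and other values against Vehicle use all 5 tumors unless said otherwise. For genes where these 2 tumors lay on the BOM side, leaving them out moves the Vehicle mean away from BOM. Values without them are therefore no separate check of the BOM effect.

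With BOM in the tumors 6 of 60 guidance genes rose and 4 fell against Vehicle, 16.7%, where 14.5% of all genes tested were called (5.9% higher and 8.63% lower), so the share called was near that of all genes. Without Vehicle tumors 1 and 2 the count was 20 of 60, with 11 rises and 9 falls, where 3363 of 14450 genes tested were called. It was 16 without Vehicle tumor 1, where 2971 of 14261 genes were called. It was 6 without any one of Vehicle tumors 3, 4 and 5 or BOM tumor 4, where 1210 to 1367 genes were called. None of 8 endothelial, 9 fibroblast and pericyte or 9 macrophage markers was called in the same comparison, and of the 9 SCLC markers 2 rose and 6 fell. Summed endothelial markers were 74.3 to 162 CPM in BOM tumors, against 86.9 to 136 CPM in Vehicle tumors. Summed fibroblast and pericyte markers were 534 to 1866 CPM in BOM tumors, against 657 to 1373 CPM in Vehicle tumors. Summed skeletal muscle markers stood at 1190 CPM in BOM tumor 2, under 5 CPM in the other BOM tumors and at 7.25 to 141 CPM in Vehicle tumors, with none of 7 called. Summed Schwann cell markers were 118 to 140 CPM in BOM tumors, against 144 to 181 CPM in Vehicle tumors, with 1 of 2 tested markers called lower and the B cell marker tested not called. The part of these cells in the results was not tested.

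Efnb2 rose to 304, 254, 252 and 298 CPM in BOM tumors, against 182, 177, 53.8, 52.6 and 60.7 CPM in Vehicle tumors 1 to 5. The groups did not overlap, and Vehicle tumors 1 and 2 stood between the BOM tumors and the other Vehicle tumors (log2 fold change 1.36, SE 0.30, adjusted p = 0.00664; 2.31 without these 2 tumors, adjusted p = 5.36e-10). Slit1 had 150, 194, 148 and 141 CPM in BOM tumors, against 122, 131, 78.7, 99.7 and 90.5 CPM in Vehicle tumors (log2 fold change 0.59, SE 0.15, adjusted p = 0.0169). Its call was lost without BOM tumor 2, at adjusted p = 0.0615. That tumor had the highest Slit1 level of the BOM tumors and also their highest summed skeletal muscle markers, whose part was not tested. Sema3c fell to 30.4, 26.5, 30.4 and 32.0 CPM in BOM tumors, against 35.7, 41.4, 66.7, 57.2 and 53.0 CPM in Vehicle tumors (log2 fold change -0.75, SE 0.17, adjusted p = 0.00783). Sema3g, another secreted semaphorin gene, averaged 6.24 ± 1.14 CPM in BOM tumors and 9.98 ± 0.93 CPM in Vehicle tumors (SD, n = 4 and n = 5; log2 fold change -0.67, adjusted p = 0.00963). Sema5a rose by 0.48 and Ntn4 by 0.30 on the log2 scale with overlapping groups.

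Among the receptors Epha8 showed the largest called change. It had 1.47, 3.92, 3.36 and 1.77 CPM in BOM tumors, against 5.77, 9.28, 9.73, 9.66 and 18.7 CPM in Vehicle tumors (log2 fold change -1.99, SE 0.39, adjusted p = 0.00364). Plxna1 had 47.7, 54.4, 51.9 and 49.6 CPM in BOM tumors, against 46.2, 39.0, 35.9, 33.3 and 32.1 CPM in Vehicle tumors, so that Vehicle tumor 1 lay just under the lowest BOM tumor (log2 fold change 0.44, SE 0.10, adjusted p = 0.0101). Epha7 rose by 0.44, without overlap between the groups, and Plxnb3, a plexin gene at a low level, fell by 0.85 with overlapping groups. Without Vehicle tumors 1 and 2 the log2 fold changes were -2.27 for Epha8, -0.98 for Sema3c, -0.77 for Sema3g, -1.12 for Plxnb3 and 0.82 for Slit1. They were 0.70 for Sema5a, 0.47 for Ntn4, 0.59 for Plxna1 and 0.65 for Epha7. All 10 called genes were among the 21 for which these 2 tumors lay on the BOM side. Leaving the 2 tumors out could therefore only widen the differences, so the kept directions are no separate check. Under the alternative settings and with each library left out in turn, Efnb2, Epha8, Sema3c, Sema3g and Plxna1 stayed called, and Epha7, Ntn4, Plxnb3 and Sema5a were each lost in 5 or more.

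Anti-PD1 alone gave no call among the 60 guidance genes or among all 14332 genes tested (0%), with 6 guidance genes and 9.85% of all genes at an unadjusted p under 0.05 and 0 guidance genes called by DESeq2 or limma voom. The lowest p was that of Efnb2, with 52.0, 60.9, 60.7, 59.0 and 44.5 CPM in anti-PD1 tumors, close to Vehicle tumors 3, 4 and 5 (log2 fold change -0.96, adjusted p = 0.289).

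BOM with anti-PD1 against anti-PD1 called 17 guidance genes higher and 11 lower, 46.7% of 60, where 32.4% of all genes were called (15.8% higher and 16.6% lower). All 10 genes called between BOM and Vehicle were among these 28, in the same direction, and the 2 comparisons share no library. The 10 are 35.7% of the 28. The same overlap over all genes was not counted, so it is not known to be particular to the guidance genes. The T cell list had 2 of 6 tested markers called higher in the same comparison, with a summed level of 13.0 to 29.5 CPM in BOM with anti-PD1 tumors and 2.19 to 14.5 CPM in anti-PD1 tumors. Of the SCLC markers 5 of 9 fell, and 1 of 8 endothelial and 1 of 9 fibroblast and pericyte markers were called. Summed Schwann cell markers were 128 to 140 CPM in BOM with anti-PD1 tumors and 160 to 206 CPM in anti-PD1 tumors, with 1 of 2 tested markers called lower and 1 higher, and the 1 B cell marker tested was called lower. Summed skeletal muscle markers stood at 170 and 95.7 CPM in BOM with anti-PD1 tumors 3 and 4, at 3.37 and 3.48 CPM in the other two, and at 5.60 to 7.75 CPM in anti-PD1 tumors, with none of 7 called. The part of these markers in the result was not tested.

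The ligands again included Efnb2, with 268, 258, 261 and 274 CPM in BOM with anti-PD1 tumors, against 52.0, 60.9, 60.7, 59.0 and 44.5 CPM in anti-PD1 tumors (log2 fold change 2.26, SE 0.31, adjusted p = 9.92e-05). Sema3c fell to 29.7, 19.1, 20.3 and 21.1 CPM in BOM with anti-PD1 tumors, against 58.5, 74.4, 52.8, 49.9 and 63.1 CPM in anti-PD1 tumors (log2 fold change -1.41, SE 0.18, adjusted p = 4.56e-05). Sema4b averaged 51.8 ± 8.2 CPM in BOM with anti-PD1 tumors and 29.8 ± 2.4 CPM in anti-PD1 tumors (SD, n = 4 and n = 5; log2 fold change 0.80, adjusted p = 1.86e-04). Efna1 averaged 26.3 ± 6.0 CPM in BOM with anti-PD1 tumors and 10.2 ± 3.5 CPM in anti-PD1 tumors (log2 fold change 1.37, adjusted p = 0.00209). Sema3f, a secreted semaphorin that binds neuropilin-2, rose by 0.83.

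The receptors with the lowest adjusted p were Epha8, Plxna1 and Ephb3. Epha8 had 1.83, 1.92, 1.41 and 5.51 CPM in BOM with anti-PD1 tumors, against 11, 13.1, 13.6, 14.2 and 12.8 CPM in anti-PD1 tumors (log2 fold change -2.28, SE 0.40, adjusted p = 4.13e-04). Plxna1 averaged 47.3 ± 2.4 CPM in BOM with anti-PD1 tumors and 31.2 ± 4.0 CPM in anti-PD1 tumors (log2 fold change 0.61, adjusted p = 4.29e-04). Ephb3 averaged 72.3 ± 7.0 CPM in BOM with anti-PD1 tumors and 99.8 ± 9.0 CPM in anti-PD1 tumors, and Robo1 had 30.8 to 33.0 CPM in BOM with anti-PD1 tumors and 35.7 to 65.3 CPM in anti-PD1 tumors, falls of 0.47 and 0.65 on the log2 scale. Plxnb3 fell by 1.26, Epha7 rose by 0.58 and Unc5c rose by 1.37 at a low level (3.07 CPM in BOM with anti-PD1 tumors, against 1.19 CPM in anti-PD1 tumors). Whether anti-PD1 changed the BOM effect was tested with an edgeR interaction term, and no guidance gene was called (0% of all genes called; 6 of 60 guidance genes and 8.78% of all genes at an unadjusted p under 0.05; 0 guidance genes by DESeq2 or limma voom). The lowest p was that of Sema4b, whose BOM effect was 0.65 higher on the log2 scale with anti-PD1 (SE 0.17, adjusted p = 0.394). BOM with anti-PD1 against BOM called none of the 60 genes with any of these 3 tools (5 at an unadjusted p under 0.05), where 0.00698% of all genes were called by edgeR and 7.74% had an unadjusted p under 0.05. BOM with anti-PD1 against Vehicle called 6 higher and 6 lower (20%, with 10.7% of all genes called, 4.94% higher and 5.8% lower), led by Sema3c, Epha8 and Efnb2, and shares its libraries with the comparisons above. A fit of only these 2 groups called 1 guidance gene and 83 of 13892 genes tested, and a fit without Vehicle tumors 1 and 2 called 23 guidance genes and 3284 of 14450 genes tested.

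**Figure D4:**
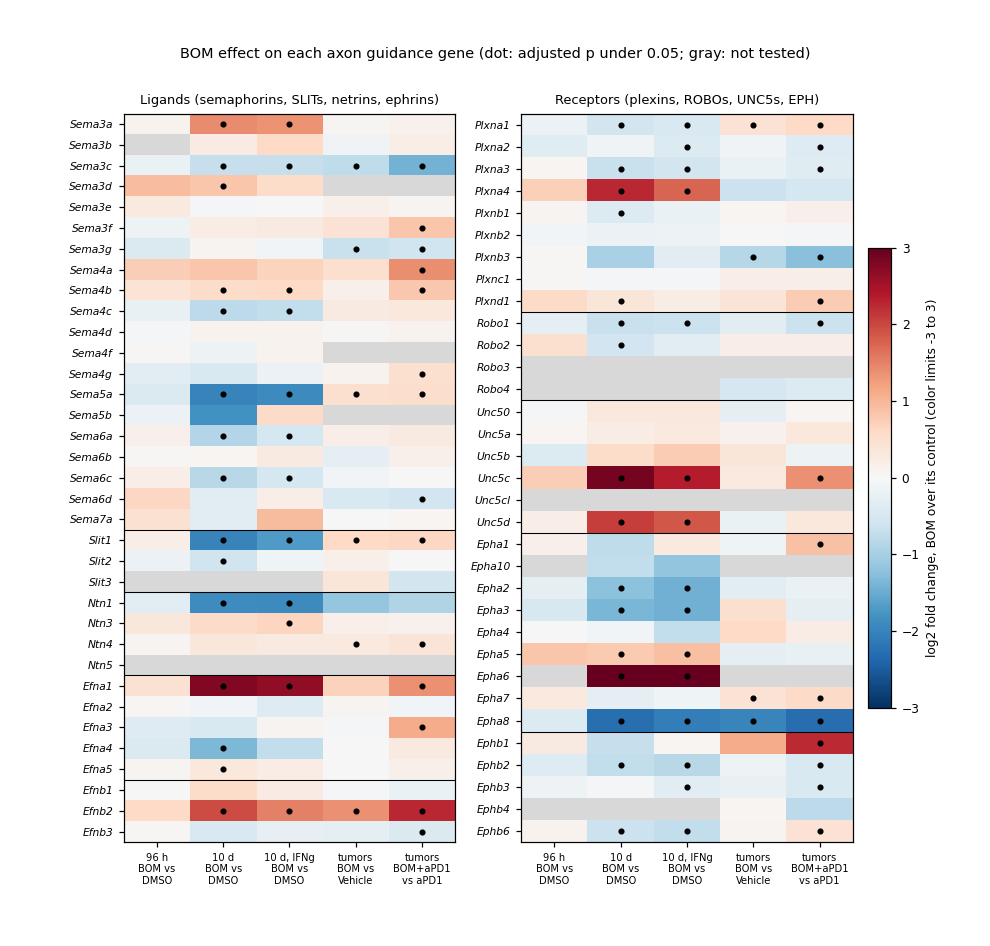
Log2 fold change with BOM over its control (color, limits -3 to 3) for each ligand gene (left) and receptor gene (right) in 5 comparisons, with a dot where the adjusted p was under 0.05 and gray where the gene was not tested. No dot stands in the 96 h column, the 10 d columns hold 31 and 27 dots, and the tumor columns hold 10 and 28; Efnb2 and Epha8 have dots in all 4 of the later columns, red for Efnb2 and blue for Epha8.

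Other pathway genes moved in the tumors as well. Of 16 co-receptor and further receptor genes 1 rose and 4 fell in BOM against Vehicle tumors, where 14.5% of all genes were called. Dcc averaged 0.454 CPM in BOM tumors and 3.0 CPM in Vehicle tumors (log2 fold change -2.63, SE 0.46, adjusted p = 0.00186). Nrp1 was not called there (log2 fold change 0.49, adjusted p = 0.289) and was called in BOM with anti-PD1 against anti-PD1 tumors (0.95, adjusted p = 0.0226). Of 5 other cues 2 rose and none fell: Rgma averaged 32.6 CPM in BOM tumors and 9.13 CPM in Vehicle tumors, and Draxin, a secreted antagonist of netrin signalling, averaged 31.8 CPM in BOM tumors and 9.92 CPM in Vehicle tumors. Both cues were called as well in BOM with anti-PD1 against anti-PD1 tumors, where Rgma averaged 30.7 CPM in BOM with anti-PD1 tumors and 1.83 CPM in anti-PD1 tumors, and Draxin averaged 24.8 CPM in BOM with anti-PD1 tumors and 3.44 CPM in anti-PD1 tumors. Of 36 intracellular signalling genes 7 rose and 4 fell. The collapsin response mediator genes went both ways, with Crmp1 falling by 1.08 and Dpysl2 by 0.53 and Dpysl4 rising by 1.04 on the log2 scale. In BOM with anti-PD1 against anti-PD1 tumors the same 3 lists had 3 rises and 4 falls of 16, 3 rises of 5, and 12 rises and 6 falls of 36, where 32.4% of all genes were called.

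Culture and tumors gave different directions for some of the same genes. Of the 31 genes called at 10 d in culture and the 10 called in BOM against Vehicle tumors, 6 were in both lists, 19.4% of the culture list and 60% of the tumor list. Efnb2, Epha8 and Sema3c had the same direction in both. Slit1, Sema5a and Plxna1 fell in culture and rose in the tumors, with log2 fold changes of -2.0, -2.0 and -0.55 in culture beside 0.59, 0.48 and 0.44 in the tumors. In BOM with anti-PD1 against anti-PD1 tumors the same 3 genes also rose, by 0.63, 0.53 and 0.61. Of the 28 genes called there 14 were also called at 10 d, 10 in the same direction and 4 in the opposite one. The fourth of these was Ephb6. Neither this overlap nor that of the 6 genes was counted over all genes. Plxna1 is overlapped on the other strand by Gm26811 and Gm44207, whereas Slit1 has no such overlap. Gm26811 averaged 4.21 CPM over the 10 d libraries and 0.224 CPM over the tumors, scaled by library total alone. Plxna1 averaged 75.8 and 40.8 CPM over the same libraries. The part of the overlap was not tested. The tables differ in RNA selection, time and setting, so a difference between culture and tumors was not tested.

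Several of the genes with the largest changes in culture were not called in BOM against Vehicle tumors. Unc5c and Efna1 were among them, but both were called higher in BOM with anti-PD1 against anti-PD1 tumors, as in culture. Sema3a had 8.84, 8.71, 7.94 and 9.23 CPM in BOM tumors, against 7.30 to 9.66 CPM in Vehicle tumors, and the groups overlapped (log2 fold change 0.09, SE 0.18, adjusted p = 0.804). Unc5d averaged 10.5 CPM in BOM tumors and 12.2 CPM in Vehicle tumors (log2 fold change -0.20, SE 0.25). Plxna4 averaged 1.07 CPM in BOM tumors and 1.72 CPM in Vehicle tumors, and Epha6 did not pass the filter on low counts there. Ntn1 was low in both groups of tumors, at 1.88 to 2.58 CPM with BOM and 2.89 to 7.42 CPM with Vehicle, without overlap (log2 fold change -1.16, SE 0.41, adjusted p = 0.0688).

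**Figure D5:**
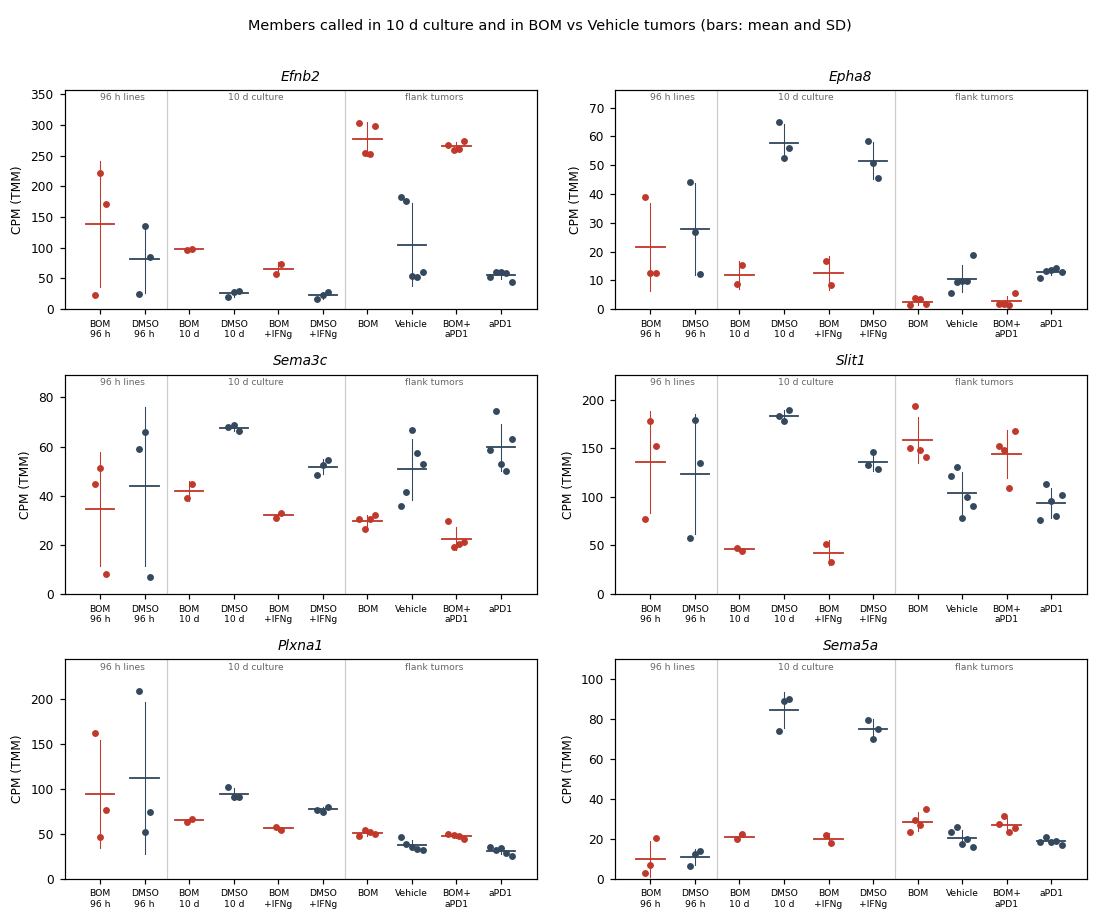
CPM of the 6 genes called at 10 d in culture and in BOM against Vehicle tumors, with 1 point per library, a horizontal bar at the group mean and a vertical bar of 1 SD; BOM groups are red, their controls dark, and gray lines part the 3 tables, which were normalised separately. Efnb2 is higher and Epha8 and Sema3c are lower with BOM at 10 d and in the tumors, whereas Slit1, Plxna1 and Sema5a are lower with BOM at 10 d and higher in the tumors.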

How the data were processed

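The authors deposited 3 tables of raw gene counts, with 6, 10 and 18 libraries. Tools named, per the submitters' processing notes, are STAR 2.7, featureCounts, Subread 2.0, bcl2fastq and FastQC 0.11.9, with the build mm10. Each table was analysed alone with edgeR 4.0.16 in R 4.3.3: filterByExpr by group, TMM, and the quasi-likelihood F-test, with cell line as a block at 96 h and 1 fit over the 4 groups at 10 d and in the tumors. p-values were adjusted by Benjamini-Hochberg over all genes tested in the table (13333, 15230 and 14332). The common biological variation (coefficient) was 0.169 at 96 h, 0.104 at 10 d and 0.181 in the tumors. A standard error is the absolute log2 fold change divided by the square root of F. Alternatives were DESeq2 1.42.0, limma 3.58.1 voom with sample weights, other scalings and filters, the replicate number as a block, a fit of only the 2 groups compared, fits without Gm26917 and Gm42418 or without Vehicle tumors 1 and 2, and each library or line left out. The pipeline was tested on simulated data. Figures used matplotlib 3.10.9.

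The genes and lists were chosen with earlier results of these data known. Named genes are the 24 with the lowest p among called genes at 10 d and in BOM against Vehicle tumors, the 12 lowest elsewhere, the 10 lowest at 96 h and the highest of each family per kilobase; up to 6 called genes per pathway list are named. Robo4, Ephb4, Slit3, Unc5a, Unc5b, Plxnb1, Efna4 and Sema3d were added after their values were seen. Gene coordinates came from GENCODE M21 (mm10), which held 98.2 to 98.3% of the gene identifiers. Of the 68 genes 30 overlap a gene on the opposite strand, and the kit does not mark the strand. Numbers of DMSO libraries without and with IFNg were treated as pairs because the residuals of all 3 pairs correlated above 0.1 (0.393, 0.119 and 0.133). DMSO library 3, however, correlated best with library 2 of DMSO with IFNg, so this pairing is uncertain. The block on replicate number covered all 4 groups at 10 d. Between the other pairs of groups, residuals of the same number correlated at 0.0584 to 0.230. The main fit at 10 d used no pairing. No libraries of a group were copies of each other (lowest chi-square per degree of freedom 2.55). One promoter motif that was searched is not reported here.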

Additional observations from a re-analysis of the deposited data

Results flagged for a closer look

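Epha8 stood at 5.51 CPM in BOM with anti-PD1 tumor 4, apart from the other 3 tumors of that group, whose median was 1.83 CPM. Ephb2 stood at 113 CPM in anti-PD1 tumor 2, apart from the other 4 anti-PD1 tumors, whose median was 88.9 CPM. A gap test was run on 72 groups of named genes and tumors and marked these 2, and chance alone marks about 1 in 20. Slit1 changed with BOM by -2.0 on the log2 scale at 10 d in culture and by 0.59 in the tumors, with no overlap between BOM and control libraries in either setting. Plxna1 changed by -0.55 at 10 d and by 0.44 in the tumors, also without overlap. These differences between culture and tumors were not tested, because the tables were normalised separately.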

How the results depend on the processing

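Counts in this section are of called guidance genes, and for most settings the count over all genes is not given beside them. A change in such a count may therefore only follow the count over all genes. At 10 d the count of called genes with BOM stayed between 25 and 39 under all alternatives (31 as reported), and with IFNg present every alternative was within 1.5 times of 27. Scaling by library size alone moved the share of higher calls over all genes to 70.8%, against 59.4% as reported (68.1% against 56.3% with IFNg), while the guidance genes then split into 13 higher and 19 lower (10 and 16 with IFNg). For DMSO with IFNg against DMSO, with 5 calls, limma voom gave 8, library size alone 3 and the replicate block 9, and leaving out single libraries gave 1 to 6. For BOM with IFNg against BOM, with 0 calls, limma voom gave 1, no filter 6, the replicate block 4, the fit of only 2 groups 1, and leaving out single libraries 0 to 3, the 3 without DMSO with IFNg library 1. At 96 h no filter gave 2. BOM against Vehicle tumors, with 10 calls, gave 20 without Vehicle tumors 1 and 2 and 6 to 16 with single tumors left out: 16 without Vehicle tumor 1, and 6 without Vehicle tumor 3, 4 or 5 or BOM tumor 4. BOM with anti-PD1 against Vehicle, with 12, gave 23 without Vehicle tumors 1 and 2, 1 in the fit of only 2 groups, and 3 to 19 with single tumors left out: 19 without Vehicle tumor 1, 5, 4 and 3 without Vehicle tumors 3, 4 and 5, and 7 without BOM with anti-PD1 tumor 2 or 4. BOM with anti-PD1 against anti-PD1 gave 23 to 29 calls, against 28 as reported. The replicate block moved no other count by over 1.5 times. The tumor numbers did not pair the samples in a regular way. Between Vehicle and anti-PD1 tumors the residuals correlated at 0.512 for number 1 and at -0.156 for number 3. No direction reversed for any named gene. Depth limits the precision of Epha6 at 10 d, with 0 to 22 counts in each library.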
